A study of Mus musculus with 7 samples.

Results

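The G2/M nuclei described here were chosen by the share of their UMIs (unique molecular identifiers, 1 per captured RNA molecule) that fell on 10 genes used late in the cell cycle, Top2a, Mki67, Cdk1, Cdc20, Cenpf, Cenpe, Ccnb1, Aurka, Plk1 and Tpx2. Of 10047 barcodes in the library, 8917 had 2000 to 8000 detected genes and were kept, and the 1783 nuclei with the highest share were taken as members and compared with the 7134 other kept nuclei. The library came from BB-p53n OPCs, oligodendrocyte progenitor cells in culture that form gliomas when injected into mouse brain. These were primary OPCs of either sex, isolated with an antibody to CD140a (the PDGF receptor alpha) from the brains of Trp53 fl/fl C57BL/6 pups in the first postnatal week, and transduced with a retrovirus carrying PDGFB-IRES-CRE, meant to remove Trp53 and supply PDGF-BB in the same cells. All nuclei came from this 1 transduced culture, the study does not give the share of cells that took up the virus, and it was 1 library of single nuclei with no replicate. The series also holds brain libraries labelled early tumor (3 libraries) and late tumor (3 libraries), and these were not used.

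A cell that has copied its DNA spends the G2 phase preparing for division and the M phase separating its chromosomes, and the genes that serve these steps are switched on together shortly before they are needed. Many of them are held off earlier in the cycle by the DREAM complex and switched on later by B-MYB and FOXM1. This works through a short promoter element known as the cell cycle genes homology region (CHR). Many such promoters also hold the CCAAT box, the site of the factor NF-Y. Genes for DNA replication peak earlier, in late G1 and S phase, mostly through E2F factors. In OPCs, PDGF is the growth factor that keeps the cells dividing, and loss of Trp53 removes a gene that arrests dividing cells after damage.

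The share that chose the nuclei is a description and was not tested. It ran without a gap through the cutoff: the lowest member had 38.46 UMIs of the 10 genes per 10000 UMIs and the highest nucleus left out had 38.45. The median was 47.6 per 10000 in members against 16.0 in the other nuclei, and 253 of the other nuclei had no UMI on any of the 10 genes. All 10 genes were detected in 65.5% of members and in 12.9% of the others. By gene, the level in CPM (UMIs of a gene per 1000000 UMIs, summed over the nuclei of a group) was 2.09-fold to 3.71-fold higher in members, lowest for Mki67 and highest for Cenpf. The 3 markers of the label stood at ratios of 2.43 for Top2a, the topoisomerase that untangles sister chromosomes, 2.64 for Cdc20, an activator of the anaphase-promoting complex, and 3.08 for Plk1, the polo-like kinase. When the members were chosen on a random 1 of 2 parts of the UMIs and measured in the other, these ratios were 2.24, 2.44 and 2.92. Nuclei with many replication transcripts were rare among the members: 54 of them (3.03%) were also among the 20% of kept nuclei with the highest share on replication and S phase genes, against 24.2% of the other nuclei.

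Members were the deeper nuclei. Their median was 17340 UMIs per nucleus (95% exact interval 16819 to 17763) against 13101.5 (12922 to 13245) in the others, a ratio of 1.32, and they had a median of 5289 detected genes against 4595. After each nucleus was thinned at random to 5000 UMIs, the medians were 2598 and 2594 genes (19 members and 138 other nuclei were shallower and left out). The share of members went from 9.08% in the shallowest of 10 equal depth classes to 38% in the ninth and was 27.7% in the deepest. Mitochondrial transcripts took a median of 5.70% of UMIs in members and 6.28% in the others. Intervals of CPM ratios cover counting error of UMIs only. Those of medians and percentages treat nuclei or promoters as independent units, and none covers variation between cultures. When the other nuclei were weighted to the depth mix of the members, the counts of genes at least 1.5-fold higher and lower, given next, were 161 and 81.

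**Figure D1:**
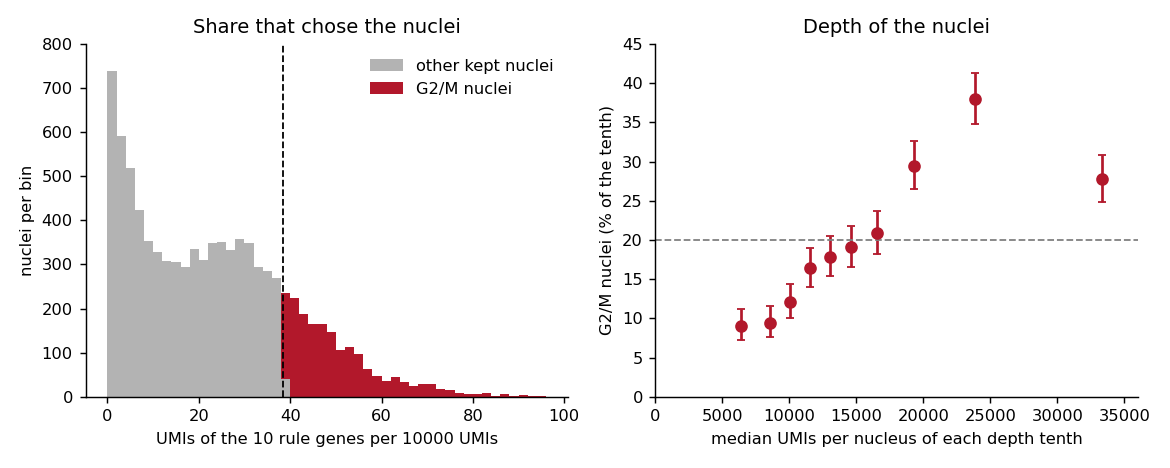
Left, number of kept nuclei by UMIs of the 10 rule genes per 10000 UMIs, in bins of 2, with the G2/M nuclei in red, the other kept nuclei in grey and the cutoff dashed. Right, percent of nuclei that were members in each of 10 equal classes of nuclei by depth, plotted at the median UMIs of the class with 95% exact binomial intervals and the share over all kept nuclei dashed. The share has no gap at the cutoff, and members run from 9.08% of the shallowest class to 38% of the ninth.

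Outside the 10 genes, few transcripts differed. Of 9263 genes with at least 10 CPM over the kept nuclei, 177 (1.91%) were at least 1.5-fold higher in members and 96 (1.04%) were at least 1.5-fold lower, and 84.5% lay within 1.2-fold. The median ratio over all these genes was 0.983, with a 5th to 95th percentile of 0.778 to 1.22. Genes on the cell-cycle lists (10 lists, and the phase genes that Seurat carries) made up 235 of the 9263 and gave 86 of the higher and 10 of the lower genes. The other 9028 genes gave 91 higher (1.01%) and 86 lower (0.953%). With no replicate, the 1.5-fold limit is a size and not a test. The 10 CPM limit was set over all kept nuclei, so some genes passed it only through the group where they were higher. The count of lower genes depended on which nuclei were compared: it was 208 with the top 10% as members, 340 when mitochondrial UMIs were limited to 5% of a nucleus, which left 1954, and 58 with the others weighted to the mix of 7 clusters of the members, and the counts of higher genes were then 208, 199 and 134.

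Among cell-cycle genes, those of the mitotic spindle stood highest. Of 26 spindle motors and microtubule factors, 21 were higher and none lower, with a median ratio of 2.25. Aspm, which holds microtubules at the spindle pole, was at 287 CPM in members and 84.4 in the others (ratio 3.41, 95% exact interval 3.31 to 3.51). Prc1, which bundles the microtubules of the central spindle, was at 538 against 185 CPM (2.91), and Kif14, Kif2c and Kif20a, motors of the kinesin family, had ratios of 2.85, 2.71 and 2.47. The cargo motors Kif5b and Kif3a and the tubulin depolymerase Kif2a, which cells also use outside mitosis, had ratios of 1.01, 1.18 and 1.01. In the cytokinesis list, 10 of 13 genes were higher with a median of 1.84, led by Depdc1a (2.60), Cep55 (2.39), which recruits the machinery that cuts the bridge between daughter cells, and Ect2 (2.27), the exchange factor that activates RhoA at the cleavage site. Rhoa, Septin7 and Septin9 in that list stood at 0.94, 1.05 and 0.95.

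The kinetochore and centromere list had 17 of 26 genes higher and a median of 1.72. Cenpa, the histone H3 variant that marks centromeres, was at 322 against 135 CPM (2.39), and Sgo2a, which protects cohesion there, had a ratio of 2.37. The list was not uniform: the outer kinetochore genes Knl1 and Spc25 had ratios of 1.98 and 1.99, while the constitutive centromere genes Cenph and Cenpk had 0.95 and 0.97. Of the mitotic kinases, cyclins and their regulators, 13 of 20 were higher with a median of 1.69, from Nek2 (3.05), the kinase that separates centrosomes, to Pkmyt1 (0.89), which restrains CDK1. The phosphatases that release CDK1 were split in the same way, at 2.50 for Cdc25c and 2.24 for Cdc25b against 0.89 for Cdc25a.

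In the list of ubiquitin enzymes and anaphase-promoting complex genes, 4 of 12 were higher. Ube2c, the conjugating enzyme that works with the complex, was at 720 against 239 CPM (3.02), and Fzr1, the activator CDH1 that takes over from CDC20, at 47.3 against 20.9 (2.27). The core subunits Anapc1, Anapc4, Cdc16 and Cdc23 lay between 0.97 and 1.19. Of 22 genes for condensin, cohesin and chromosome structure, 8 were higher. The condensin I genes Ncaph, Ncapg and Ncapd2 had ratios of 1.62, 1.61 and 1.54, and the condensin II genes Ncaph2, Ncapg2 and Ncapd3 had 1.23, 0.92 and 0.95, so the 3 genes of condensin I each stood above those of condensin II. Among cohesin genes, Rad21 was at 1.6, while Smc1a, Smc3, Stag1 and Stag2 lay from 1.00 to 1.16. In the list of cell-cycle transcription factors, Foxm1 was the 1 higher gene, at 74.7 against 45.7 CPM (1.63), and E2f1 the 1 lower gene, at 13.7 against 23.8 (0.58).

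**Figure D2:**
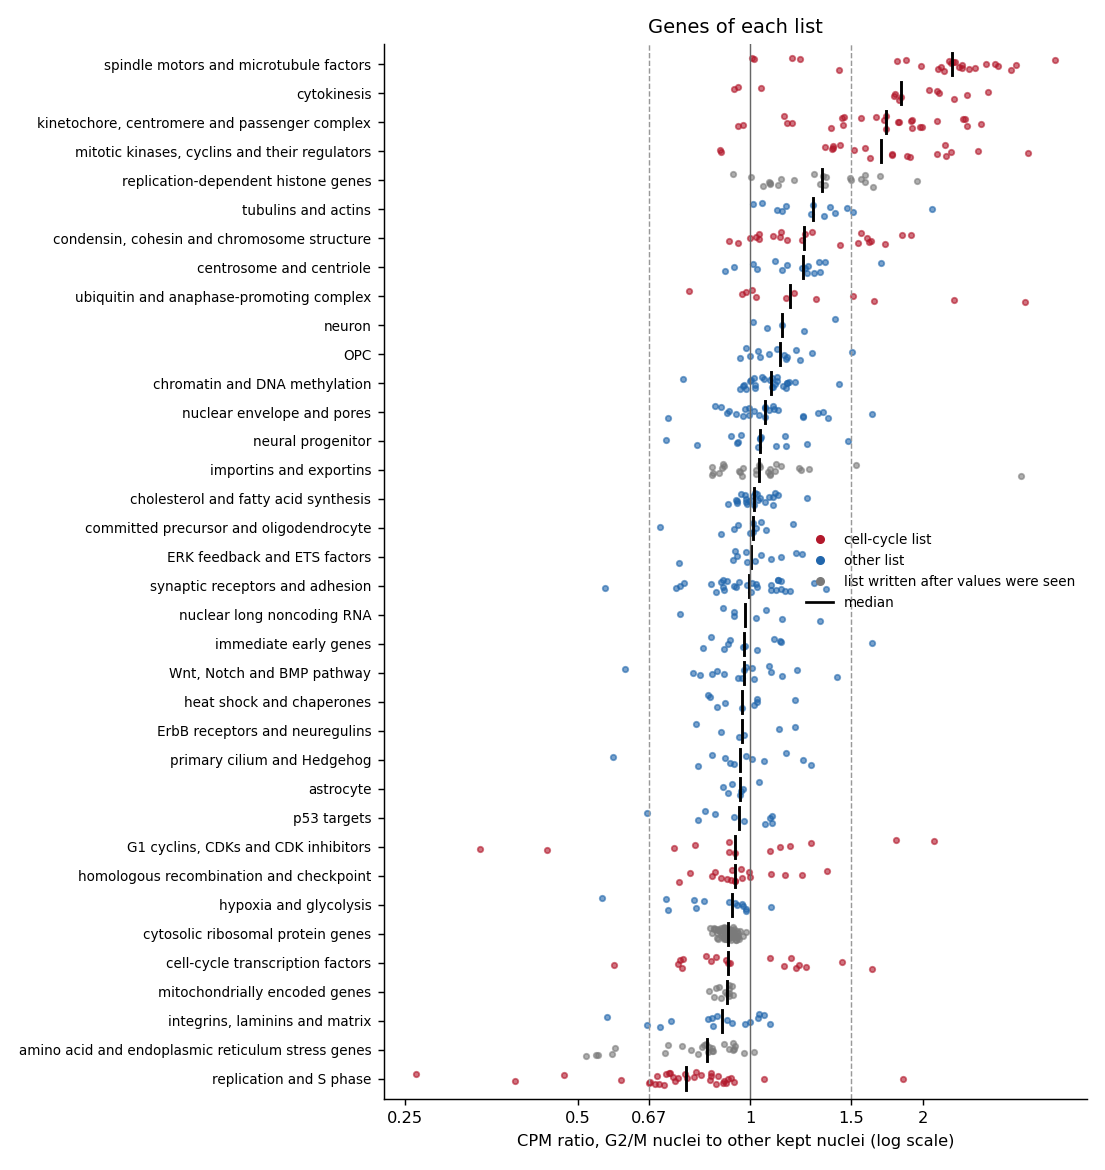
CPM ratio of G2/M nuclei to other kept nuclei (log axis) for every gene with at least 10 CPM in each list, 1 point per gene, with list medians as black bars and dashed lines at 1.5-fold. Cell-cycle lists are red, other lists blue, and lists written after values were seen grey. Spindle, cytokinesis, kinetochore and mitotic kinase lists have the highest medians, from 1.69 to 2.25, and the replication list has the lowest, 0.773.

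Against all other kept nuclei, several genes of earlier phases stood lower. The replication list had a median of 0.773, with 4 of 34 genes at least 1.5-fold lower and 1 higher. The direction depended on the comparison: against the 253 nuclei with no rule-gene UMI, the median of this list was 1.73. Ung, the uracil glycosylase that works beside the replication fork, was at 6.53 CPM in members and 25 in the others (0.26, 0.23 to 0.30), Cdc6, which loads the replicative helicase, at 16.6 against 42.7 (0.39), Chaf1b, a subunit of the chromatin assembly factor, at 14.1 against 29.8 (0.47), and Cdt1, the other loading factor, at 24.2 against 40.5 (0.6). Of these 4 genes, Ung was below 10 CPM in members and passed that limit only through the other nuclei. All 4 were expressed at their highest level in the fourth of 5 equal parts of the nuclei ordered by rule-gene share, and the helicase genes Mcm2 to Mcm7 lay from 0.67 to 0.90. The exception was Dbf4, the partner of the kinase CDC7, at 155 against 83.9 CPM (1.85), while Cdc7 itself was at 0.91. In G1, the E cyclins were the lowest, Ccne2 at 13.1 against 38.7 CPM (0.34) and Ccne1 at 11.5 against 26.2 (0.44), whereas the D cyclin genes Ccnd1, Ccnd2 and Ccnd3 lay at 0.94, 0.92 and 1.08. Of the CDK4 and CDK6 inhibitors of the INK4 family, Cdkn2c was higher, at 119 against 56.8 CPM (2.09), and Cdkn2d at 102 against 57.0 (1.79), while Cdkn2a stood at 0.92. No gene of the homologous recombination and checkpoint list passed 1.5-fold in either direction (18 genes, median 0.941), and its median against the 253 nuclei with no rule-gene UMI was 3.28.

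Of the genes on no cell-cycle list, the 15 with the highest ratio included several with centrosome, spindle or DNA roles. Pif1, a DNA helicase that resolves G-quadruplexes, led them: it was at 36.3 CPM in members and 9.44 in the others (3.85, 3.54 to 4.19). Pif1 thus passed the limit of 10 CPM over all kept nuclei only through the members. So did Zfp804b, at 28.4 against 9.59 CPM (2.96), and the cell-cycle gene Psrc1, at 6.69 CPM in the others. After thinning to 5000 UMIs, 17.1% of members and 3.39% of the others had a Pif1 UMI (44.2% and 10.8% without thinning). Over the 5 parts of nuclei ordered by rule-gene share it was at 36.3, 20.1, 9.65, 2.07 and 0.998 CPM, so that it was nearly lost from the nuclei with the lowest share. Kpna2, an importin alpha that also controls spindle assembly factors, was the most abundant of the 15, at 160 against 53.9 CPM (2.97, 2.86 to 3.08). It stood apart from its family: of 27 importin, exportin and Ran cycle genes, a list written after values were seen, Kpna2 and Rangap1 (1.53) were higher, and Kpna1, Kpna3, Kpna4 and Kpna6 lay from 0.86 to 1.08.

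The promoter stretches below belong to 9 of the genes with high ratios, most of them picked because they hold the letters described here, and to 3 with low ratios. Each line gives the 150 bases before the start of the canonical transcript, read on the strand of the gene from GRCm39. Capitals mark TTTGAA or TTCGAA, the CHR-like letters, and CCAAT, in both cases on either strand, so that TTCAAA and ATTGG are the same letters read from the other strand.
Pif1: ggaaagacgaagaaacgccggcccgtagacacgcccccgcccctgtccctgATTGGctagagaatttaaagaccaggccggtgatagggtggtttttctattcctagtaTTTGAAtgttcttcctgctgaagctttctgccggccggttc
Cep89: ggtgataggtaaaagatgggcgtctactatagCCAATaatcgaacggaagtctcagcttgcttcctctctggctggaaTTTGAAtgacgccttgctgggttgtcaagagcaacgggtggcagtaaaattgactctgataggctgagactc
Kpna2: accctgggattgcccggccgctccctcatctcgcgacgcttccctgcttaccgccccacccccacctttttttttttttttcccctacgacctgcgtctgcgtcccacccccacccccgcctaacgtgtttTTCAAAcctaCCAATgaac
Prr11: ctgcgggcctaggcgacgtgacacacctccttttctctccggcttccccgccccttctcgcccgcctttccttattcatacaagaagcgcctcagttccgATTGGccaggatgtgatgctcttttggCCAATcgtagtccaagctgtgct
Arhgap19: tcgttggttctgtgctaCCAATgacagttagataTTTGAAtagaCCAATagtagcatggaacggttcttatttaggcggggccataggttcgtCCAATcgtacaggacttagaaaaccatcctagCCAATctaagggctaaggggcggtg
Parpbp: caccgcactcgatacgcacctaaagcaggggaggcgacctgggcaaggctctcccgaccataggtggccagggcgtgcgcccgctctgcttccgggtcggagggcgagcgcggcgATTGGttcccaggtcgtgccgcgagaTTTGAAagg
Fam83d: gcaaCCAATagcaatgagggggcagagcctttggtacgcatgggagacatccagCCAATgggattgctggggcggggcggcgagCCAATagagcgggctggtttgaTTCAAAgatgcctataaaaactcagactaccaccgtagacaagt
Ube2c: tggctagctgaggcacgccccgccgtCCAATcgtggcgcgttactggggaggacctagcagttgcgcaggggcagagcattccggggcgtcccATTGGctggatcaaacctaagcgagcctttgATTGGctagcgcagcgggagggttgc
Knstrn: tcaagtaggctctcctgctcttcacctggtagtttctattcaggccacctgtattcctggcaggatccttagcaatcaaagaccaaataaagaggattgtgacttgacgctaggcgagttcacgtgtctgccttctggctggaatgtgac
Apln: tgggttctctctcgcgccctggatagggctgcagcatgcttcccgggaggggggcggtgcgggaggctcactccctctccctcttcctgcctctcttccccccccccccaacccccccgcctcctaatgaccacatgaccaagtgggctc
Slc7a11: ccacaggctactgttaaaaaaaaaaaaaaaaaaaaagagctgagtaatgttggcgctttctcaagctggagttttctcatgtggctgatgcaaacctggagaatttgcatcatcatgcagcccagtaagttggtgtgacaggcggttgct
Nupr1: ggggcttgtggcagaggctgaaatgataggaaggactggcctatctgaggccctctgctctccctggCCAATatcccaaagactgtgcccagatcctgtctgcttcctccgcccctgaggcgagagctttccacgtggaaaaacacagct
The positions are chr9:65494337-65494486 for Pif1 on the plus strand, chr7:35096296-35096445 for Cep89 on the plus strand, chr11:106890368-106890517 for Kpna2 on the minus strand, chr11:86999610-86999759 for Prr11 on the minus strand, chr19:41790503-41790652 for Arhgap19 on the minus strand, chr10:87982804-87982953 for Parpbp on the minus strand, chr2:158609863-158610012 for Fam83d on the plus strand, chr2:164611668-164611817 for Ube2c on the plus strand, chr2:118644334-118644483 for Knstrn on the plus strand, chrX:47123776-47123925 for Apln on the minus strand, chr3:50398064-50398213 for Slc7a11 on the minus strand and chr7:126224849-126224998 for Nupr1 on the minus strand. Pif1, Cep89, Kpna2, Arhgap19, Parpbp and Fam83d hold both kinds of letters in these stretches, Prr11, Ube2c and Nupr1 hold CCAAT only, and Knstrn, Apln and Slc7a11 hold neither. Of the 15 genes with the highest ratio outside the cell-cycle lists, 11 hold some of these letters in the 150 bases and 4 hold none, namely Zfp804b, Troap, Trim59 and Knstrn. Of the 15 with the lowest ratio, Pus3 and Nupr1 hold some and 13 hold none, and of the 10 rule genes 3 hold some and 7 hold none. Absence from a stretch says only that these letters are not in it. In the longer promoters described next, 8 of the 10 rule genes hold CCAAT.

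Over whole promoters, taken as 250 bases before to 50 after the start, the letters went with the ratio. TTTGAA or TTCGAA stood in 45.2% of the promoters of the 177 higher genes (exact binomial interval 37.7 to 52.8%), in 36.3% for the 91 higher genes on no cell-cycle list, in 14.6% for the lower genes and in 15.2% for all 9256 genes tested that had a promoter. For CCAAT the shares were 65.5%, 63.7%, 31.3% and 40.4%. Promoters with both made up 37.3% for the higher genes, 28.6% for those on no cell-cycle list, 4.17% for the lower genes and 6.68% for all, and 52.2% for the 69 genes with a ratio of 2 or more. Of the 10 rule genes, 5 held TTTGAA or TTCGAA, 8 held CCAAT and 5 held both. The E2F-like letters TTCCCGC, searched on both strands together with TTGGCGC and with TTCGCGC, were in 15.8% of promoters of higher genes, 24.0% of lower genes (15.8 to 33.7%) and 14.9% of all. These are matches of letters, and binding of a factor was not measured.

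**Figure D3:**
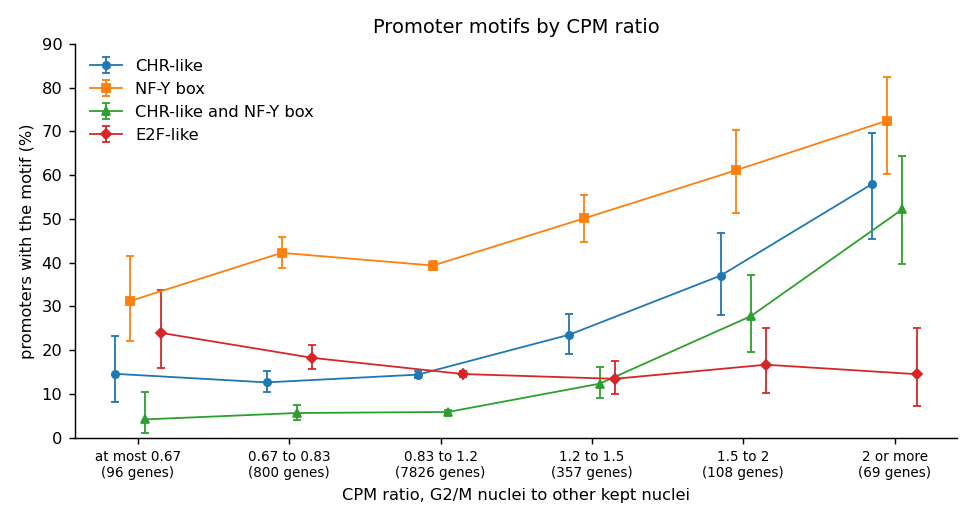
Percent of promoters (300 bases) that hold the CHR-like letters, the NF-Y box (CCAAT), both, or the E2F-like letters, against the CPM ratio of G2/M nuclei to other kept nuclei in 6 classes, with 95% exact binomial intervals. The CHR-like and CCAAT shares are highest in the class of ratios of 2 or more, where 52.2% hold both against 6.68% of all promoters, and the E2F-like share is highest in the lowest class, 24.0%.

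The other higher genes can be grouped by role. Centriole and centrosome genes included Cep89, which builds the distal appendages of the mother centriole, at 56.8 against 17.7 CPM (3.21, 3.01 to 3.42), Hyls1, a centriole protein, at 30.8 against 11.9 (2.60), and Fam110a, at 24.1 against 11.1 (2.17). The fixed list of 16 centrosome and centriole genes had 1 higher gene, Odf2 (1.69), another mother centriole gene, and a median of 1.24, so Cep89 lay far above that list. Among genes of the mitotic apparatus, Troap was at 76.0 against 28.9 CPM (2.63), Fam83d, which brings casein kinase 1 to the spindle, at 73.4 against 30.3 (2.42), and Knstrn, a kinetochore protein, at 139 against 63.3 (2.19). Psrc1, a microtubule-binding protein, at 23.5 against 6.69 (3.51), and Gas2l3, which joins actin to microtubules, at 151 against 50.4 (2.99), were the other leading genes by ratio that were cell-cycle genes of Seurat.

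Arhgap19, which switches RhoA off, was at 66.2 against 26.9 CPM (2.46), the inverse role to Ect2 above. Stk17b, a kinase of the death-associated family, was at 34.8 against 14.1 (2.46), Usp2, a deubiquitinase, at 25.3 against 11.5 (2.2), Trim59, a RING-finger protein, at 102 against 45 (2.27), and Prr11, a proline-rich protein, at 106 against 39 (2.72). Parpbp, which restrains homologous recombination, was at 65.8 against 26.9 (2.44), although the recombination genes as a list stood at 0.941. Of the further higher genes on no list, named after their values were seen, H2ax, the histone variant phosphorylated at DNA breaks, was the most abundant, at 502 against 240 CPM (2.09). Arl6ip1, a membrane protein of the endoplasmic reticulum, was at 466 against 221 (2.11), Cip2a, an inhibitor of the phosphatase PP2A, at 140 against 68.5 (2.04), and Terf1, a telomere-binding protein, at 118 against 58.1 (2.03).

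The order of the levels followed the rule-gene share over its whole range for most of these genes. Of the 15, 14 were lower at each step over the 5 parts of the nuclei, and the exception was Zfp804b, a zinc finger gene, at 28.4, 12.4, 6.78, 8.27 and 10.6 CPM. Prr11 had the widest range after Pif1, from 106 to 3.04 CPM, and Usp2 the narrowest of the 14, from 25.3 to 8.41 CPM. The 15 genes with the lowest ratio did not mirror this. They were all lowest in the members, which follows largely from their choice by ratio. Only 4 of 15 were higher at each step, among them Pus3 (8.75 to 22.8 CPM) and Elovl7 (7.79 to 23.9 CPM). Others were highest in the middle: Adm was at 6.35, 11.3, 17.2, 9.20 and 6.70 CPM and Gjc1 at 9.50, 16.5, 23.8, 18.2 and 10.2 CPM.

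**Figure D4:**
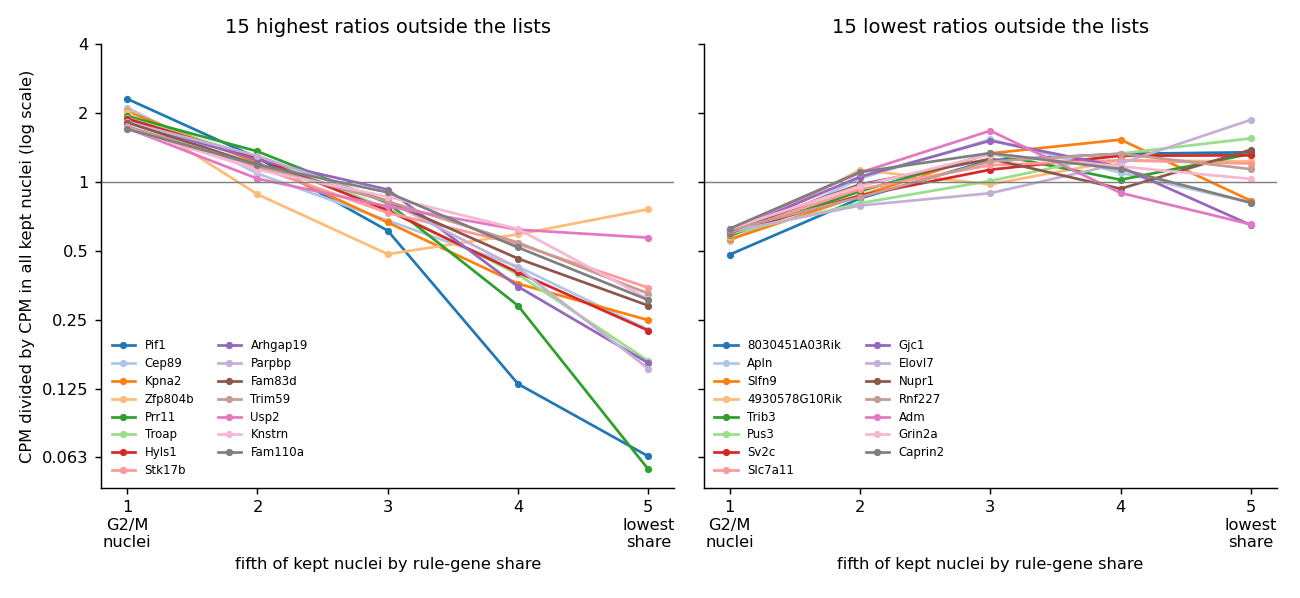
CPM in each of 5 equal parts of the kept nuclei by rule-gene share, divided by the CPM in all kept nuclei (log axis), for the 15 genes with the highest (left) and lowest (right) ratio outside the cell-cycle lists; part 1 is the G2/M nuclei. On the left 14 of 15 genes are lower at each step, and on the right all 15 are lowest in part 1 and 4 are higher at each step. The genes were chosen by the ratio of part 1 to the other nuclei, so their extremes in part 1 follow largely from that choice.

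Some higher genes had close neighbours with ratios nearer 1. Among 313 pairs of tested genes on opposite strands whose starts lay within 1000 bases of each other, 13 pairs held a higher gene and in 2 of them both genes were higher. Hmmr, a spindle protein, had a ratio of 2.68 and Nudcd2, whose start lies 192 bases away, 1.01. The starts of Cip2a and Dzip3 are 6 bases apart, with ratios of 2.04 and 1.09, and those of Parpbp and Nup37 are 37 bases apart, with 2.44 and 1.34. In 1 pair with both genes higher, Prr11 (2.72) starts 399 bases from Ska2 (1.65), a kinetochore gene. The partners of higher genes had a median ratio of 1.16, above the 0.983 of all genes tested. They ran from 0.831 to 2.72, and none was at least 1.5-fold lower. Over all genes tested, 1.91% were higher. Hyls1, a minus-strand gene of chromosome 9 (35472114 to 35481694 in GRCm39), overlaps the plus-strand gene Pus3 (35469891 to 35480308), and the 2 genes had opposite ratios, 2.60 and 0.53. The study states the default Cell Ranger pipeline for alignment and gene annotation. By default it counts intronic reads and only reads in the sense of a gene, so both values rest on that assignment by strand.

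Among the genes on no cell-cycle list with the lowest ratios, several were stress and amino acid genes. Slc7a11, the cystine transporter, was at 14.3 CPM in members and 26.5 in the others (0.54, 0.49 to 0.59), Trib3, a pseudokinase induced by the factor ATF4, at 6.74 against 13 (0.52), and Nupr1, a small stress-induced nuclear protein, at 8.78 against 16.2 (0.54). Trib3 and Nupr1 were below 10 CPM in members and passed that limit only through the other nuclei. Among the 15 lowest genes the same held for Pus3, Gjc1, Elovl7, Adm, Caprin2 and 4930578G10Rik. A list of 32 amino acid and endoplasmic reticulum stress genes, written after these were seen and so no independent evidence of direction, had 5 of 26 genes at least 1.5-fold lower, none higher and a median of 0.840; the others past the limit were Cth (0.57), which makes cysteine, and Slc1a5 (0.58), a glutamine transporter. Atf4 itself, Psat1 and Asns lay at 0.97, 1.01 and 0.81. The fixed list of heat shock genes and chaperones had none past the limit (9 genes, median 0.967).

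Several other low genes code for secreted or membrane proteins. Apln, the ligand apelin, on chromosome X from 47114019 to 47123775, was at 27.0 against 55.6 CPM (0.49, 0.45 to 0.52), Adm, the vasoactive peptide adrenomedullin, at 6.35 against 11.5 (0.55), and Gjc1, the gap junction protein connexin 45, at 9.50 against 17.6 (0.54). Grin2a, a subunit of the NMDA receptor, was at 16.5 against 29.6 (0.56), and Sv2c, a synaptic vesicle protein, at 11.3 against 21.2 (0.53). The list of 30 synaptic receptor and adhesion genes nevertheless had a median of 0.994, with Grin2a the 1 gene past the limit. The lowest ratio of all genes on no cell-cycle list was that of the long noncoding RNA 8030451A03Rik, at 10.3 against 24.7 CPM (0.41, 0.37 to 0.46). It is a plus-strand gene of chromosome 4 (63898091 to 64068161) and overlaps the minus-strand gene Tnc, for the matrix protein tenascin C, which was itself at 132 against 235 CPM (0.56). Tnc and Itga9 (0.66), an integrin that binds it, were the 2 lower genes among 16 of the integrin, laminin and matrix list, whose median was 0.892.

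Genes of the oligodendrocyte lineage differed little. Of 14 OPC genes, 1 was at the limit, Nkx2-2 at 28.9 against 19.3 CPM (1.5), and the median was 1.13. Pdgfra, the receptor for PDGF, was at 297 against 243 CPM (1.22, 1.19 to 1.25), Olig2 at 328 against 283 (1.16), Cspg4 at 72.0 against 62.4 (1.15) and Sox10 at 90.1 against 86.5 (1.04). Of 11 committed precursor and oligodendrocyte genes, none passed the limit (median 1.01). The astrocyte, neural progenitor and neuron lists also had no gene past the limit, with medians of 0.959, 1.04 and 1.13 over 7, 15 and 5 genes. No marker of microglia, endothelium or fibroblasts and pericytes reached 10 CPM, and their summed levels were 6.56, 7.28 and 1.38 CPM in members against 7.98, 12.4 and 1.84 in the others, with C1qa and Cldn5 at 0 in both.

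Lists of signalling and metabolic genes had medians close to 1. The feedback genes and ETS factors downstream of ERK had no gene past the limit and a median of 1.00 over 12 genes, with Etv4 and Etv5 at 1.23 and 1.2. The ErbB receptors and neuregulins had a median of 0.966 over 6 genes, the p53 targets 0.957 over 10, with Gadd45a lower at 0.66, and the Wnt, Notch and BMP genes 0.974 over 17, with the BMP receptor gene Bmpr1b lower at 23.7 against 39.1 CPM (0.61). Of 12 primary cilium and Hedgehog genes, Gli3, a Hedgehog effector, was the 1 lower gene, at 11 against 19.1 CPM (0.58), and the median was 0.959. Transcripts counted for Trp53, which the Cre of the retrovirus was meant to remove, stood at 22.4 against 25.5 CPM (0.88, 0.81 to 0.95); with no untransduced culture and no count by exon, this value does not check the deletion. Cholesterol and fatty acid synthesis genes ran from 0.914 to 1.25 over 23 genes, with none past the limit. Hypoxia and glycolysis genes had a median of 0.931 over 14, with Adm the 1 lower gene, and immediate early genes 0.975 over 12, with Ier3 the 1 higher (1.63).

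Structural genes of the nucleus and cytoskeleton had unequal ratios. Tubulins stood above actins: Tubb4b was at 193 against 93.3 CPM (2.07), Tubb2b at 1.51, Tubb5 at 1.48 and Tuba1b at 1.28, while Actb and Actg1 were at 1.01 and 1.05. Of 25 genes of the nuclear envelope and pores, Sun2, a linker to the cytoskeleton, was higher (1.63), Lmnb1 was at 1.37 and Lmna at 0.72, and the median was 1.06. Chromatin and DNA methylation genes had no gene past the limit and a median of 1.09 over 26. Of 22 replication-dependent histone genes with at least 10 CPM, a list written after values were seen, 7 were higher and none lower (median 1.33), led by H4c8 at 24.7 against 12.7 CPM (1.95). These genes are near-identical copies, so reads may be split among them, and a 3′ library with an oligo-dT primer captures their mostly unpolyadenylated transcripts only in part.

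The long noncoding RNA Malat1, a nuclear transcript, was at 11334 CPM in members and 8558 in the others (1.32), above the other 7 of its list, from 0.755 for Xist to 1.14 for Neat1. All 73 cytosolic ribosomal protein genes tested were below 1, from 0.852 to 0.982, and together took 74141 against 81179 CPM. The 13 mitochondrially encoded genes ran from 0.849 to 0.935. Both lists were written after values were seen.

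To measure how far these ratios held within groups of similar nuclei, the nuclei were clustered without cell-cycle genes, which gave 7 clusters that are called here by number. The share of members ran from 0.601% of cluster 2 (9 of 1498 nuclei) to 34.0% of cluster 3. Clusters 2 and 3 both had high levels of Fam135b (706 and 417 CPM) and held very different shares of members; they were joined, a choice made after seeing the data, giving 6 groups with shares of 14.8% (cluster 1, with little Pdgfra and much Egfr and Xist), 17.1% (cluster 6), 17.3% (clusters 2 and 3), 18.7% (cluster 5), 23.3% (cluster 0) and 29.3% (cluster 4). Members had more UMIs than the other nuclei within each of the 6 groups. Cluster 5 had a median of 29736 UMIs, against 10065 to 18123 in the other clusters, and its leading gene, Pwwp3b, was only 1.29-fold higher there. Its levels of Nrg3, Egfr, Xist and Fam135b, 43.6, 52.4, 163 and 289 CPM, lay between those of other clusters. Whether it holds mixed barcodes was not tested. When the other nuclei were weighted to the mix of groups of the members, 163 of the 177 higher genes and 61 of the 96 lower genes stayed past 1.5-fold, and among genes on no cell-cycle list 77 of 91 and 51 of 86 did. With all 7 clusters kept apart, the weighting planned beforehand, 133 of the 177 and 49 of the 96 stayed past it.

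Of the 15 highest genes on no list, 14 were above the other nuclei in all 6 groups. Pif1 ran from 2.24-fold (cluster 5) to 6.02-fold (cluster 6) and Kpna2 from 2.01-fold to 3.81-fold. Zfp804b was the exception, from 0.65-fold in cluster 1, at 2.73 against 4.19 CPM, to 6.45-fold in clusters 2 and 3, at 4.10 against 0.635 CPM. It was most abundant in cluster 6, at 415 CPM in the members and 168 CPM in the others of that cluster. Of the 15 lowest genes, 10 were below the other nuclei in every group where they were detected. Grin2a, 1 of these 10, had no UMI in cluster 6 and so no ratio there. Grin2a, Adm and Apln were largely genes of cluster 1, where their levels were 116 against 153 CPM, 43.9 against 60.1 and 174 against 275, and the weighting moved them from 0.56, 0.55 and 0.49 to 0.72, 0.73 and 0.63. Slfn9, a gene of the Schlafen family, moved the other way, from 0.49 to 0.46, and 8030451A03Rik went from 0.41 to 0.46. The OPC list then had a median of 1.04 with Nkx2-2 at 1.16, and Ier3 was at 1.2. Bmpr1b, Gadd45a and Itga9 were no longer past the limit, at 0.74, 0.71 and 0.68, and neither were Tubb2b and H3c6, both at 1.46. Y-linked Eif2s3y and Uty stood at 1.57 and 1.52 over all kept nuclei and at 1.08 and 1.07 after weighting, and Xist at 0.76 and 0.98.

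**Figure D5:**
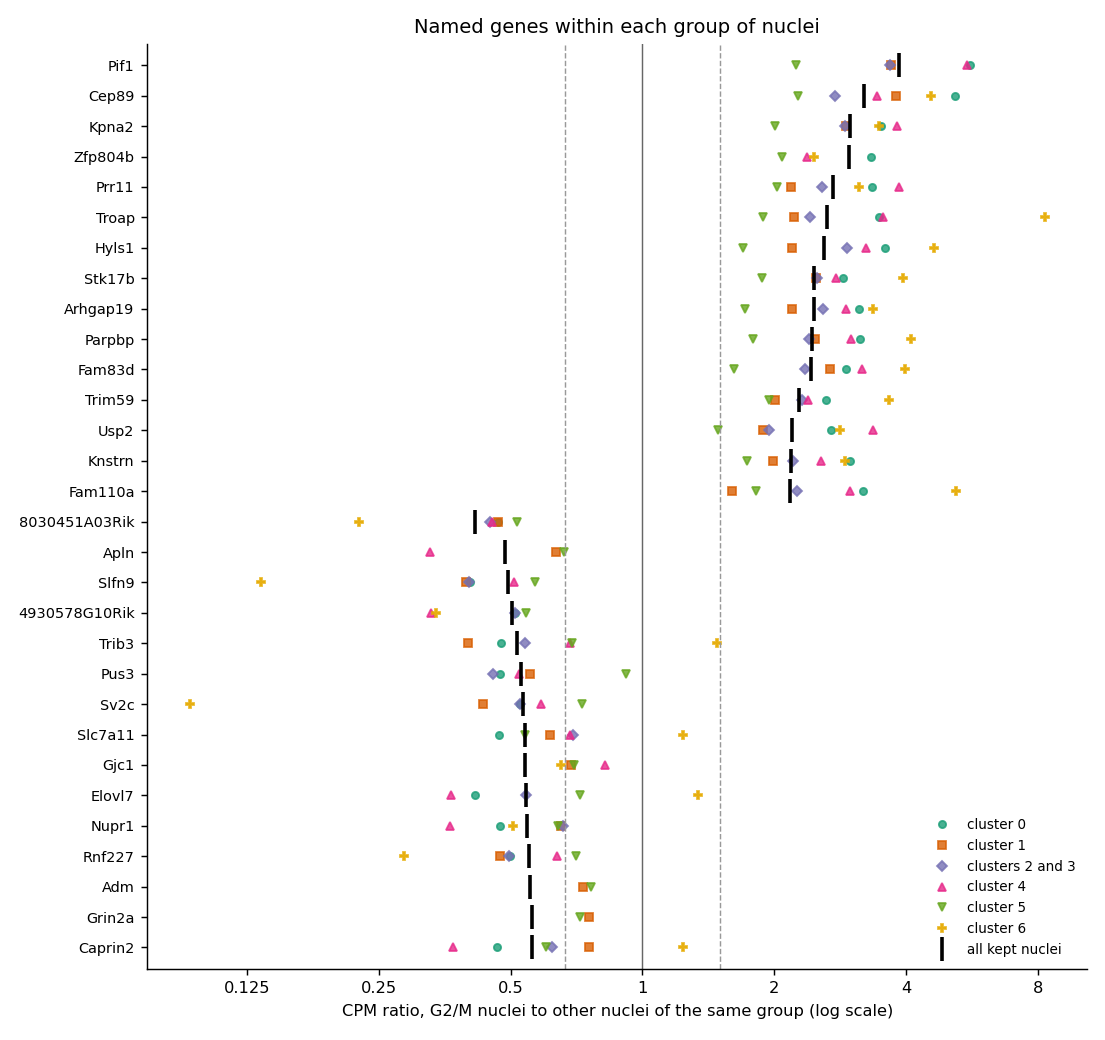
CPM ratio of G2/M nuclei to other nuclei (log axis) within each of 6 groups of nuclei, for the 15 genes with the highest and the 15 with the lowest ratio outside the cell-cycle lists; black bars give the ratio over all kept nuclei, and groups where the other nuclei were below 5 CPM or the members had no UMI are not drawn. Cluster 5, the deepest, lies nearest to 1 for most of the higher genes, and cluster 6, with 32 members, has the widest spread.

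Gene length and chromosome made little difference to the median ratio of genes on no cell-cycle list. Over 5 classes of gene span with 1804 or 1805 genes each, the median ratio lay from 0.969 in the longest genes to 0.990. The lower genes were not spread evenly: 40 of the 86 were in the longest class, more than an equal share. Of the 91 higher genes, 11 were in that class. By chromosome, the median ratio ran from 0.919 on chromosome 14 (324 genes) to 1.01 on chromosome 11 (723 genes), and weighting to the mix of groups moved chromosome 14 to 0.961. Apart from the Y-linked pair above, the higher genes were spread over the autosomes, with Pif1 on chromosome 9 from 65494442 to 65503249, Cep89 on chromosome 7 from 35096412 to 35139256, Kpna2 on chromosome 11 from 106879455 to 106890367 and Prr11 on chromosome 11 from 86979977 to 86999609, and none lay on chromosome X.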

How the data were processed

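Single-nucleus RNA-seq of cultured BB-p53n OPCs was measured in 1 library, a single group of 1 sample. Reads were aligned to mm39 by the authors in the default pipeline of Cell Ranger 8.0.1. They called barcodes with its algorithm at an expected number of cells that they set. The UMI counts were deposited unnormalized and not yet filtered on detected genes. The counts of 33696 genes were used as deposited, and 33185 genes matched GENCODE vM39 on GRCm39, the build of mm39, for positions and promoters. UMIs of members and of other kept nuclei (33246041 and 107892052) were summed and divided by their totals to give CPM. Ratios have 95% exact intervals (Clopper-Pearson, on the split of the UMIs of a gene between the groups). The cutoffs on detected genes that the study states leave 8917 nuclei; adding a limit of 5% mitochondrial UMIs, which its methods do not state, leaves 1954, the number it lists after filtering. Nuclei are not replicates, so no test was run. Genes at 10 CPM or more were kept, and 1.5-fold was the limit. The code for ratios and intervals was checked on simulated data. Clustering used Seurat 5.3.0 in R 4.3.3 with 3000 variable genes, 20 components, 200 neighbors and a resolution of 1.0, without cell-cycle genes. Scrublet in scanpy 1.11.5 called 0 doublets at its automatic threshold, so its calls gave no check on doublets, and none were removed. Its scores were used only in an alternative that left out the nuclei with the 8% highest scores, and in describing the nuclei.

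The named genes are the 15 highest and 15 lowest ratios outside the cell-cycle lists, the 10 highest ratios whatever the list and the members of 34 gene lists. Other genes and 5 further lists were chosen after their values were seen. The members and lists were chosen with earlier results of these data known. Alternatives changed the share taken, the comparison nuclei, thinning, depth and cluster weights, the denominator, the mean, the cutoffs on genes, mitochondrial UMIs and Scrublet scores, and the CPM limit.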

Additional observations from a re-analysis of the deposited data

Results flagged for a closer look

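Barcodes outside the cutoffs on detected genes were in no comparison above, and some carried a rule-gene share at least as high as that of the lowest member. Of 918 barcodes with fewer than 2000 genes, 109 did (11.9%, 95% exact binomial interval 9.85 to 14.1%), at a median of 2 rule-gene UMIs and 1717 UMIs over all 918. Of 212 barcodes with more than 8000 genes, 35 did (16.5%, 11.8 to 22.2%), at a median of 161.5 rule-gene UMIs and 53105 UMIs over all 212. With all deposited barcodes included in the ranking, 169 genes were at least 1.5-fold higher in members and 83 lower.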

How the results depend on the processing

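The counts of genes at least 1.5-fold higher stayed between 134 and 208 in all alternatives but 3, and all 15 named higher genes on no cell-cycle list stayed past 1.5-fold in the 14 alternatives that gave each gene a value. Against the 253 nuclei with no rule-gene UMI there were 803 higher and 393 lower genes, the ratio of median UMIs was 1.95, and 3 low genes reversed, Slfn9 to 2.26, Gjc1 to 1.51 and Adm to 1.51. With genes at 1 CPM or more 273 were higher and 663 lower, and at 50 CPM or more 92 and 9; fewer or more genes were tested by construction. With the top 10% as members 208 genes were lower and the ratio of median UMIs was 1.18. With nuclei of at most 5% mitochondrial UMIs, 1954 in all, 340 were lower and the ratio was 1.25. With weights for the 7 clusters 58 were lower. The cause of these changes was not tested. Of the 15 named lower genes, 9 stayed past the limit against nuclei with no rule-gene UMI and 12 to 15 in the other alternatives; Grin2a had no median within clusters. Of 503 alternative list medians, 466 stayed within the interval of the main value, 37 moved, and 7 of these crossed 1. Against nuclei with no rule-gene UMI 6 did, among them the replication list, to 1.73, the recombination list, to 3.28, cell-cycle transcription factors, to 1.58, and G1 genes, to 1.29. Of the 1752 nuclei chosen after thinning to 5000 UMIs, 1432 were members. Weighting with clusters 2 and 3 joined and the median within clusters were chosen after seeing the data. With 1 library, sampling of cultures was not measured. No paired analysis was possible because there is 1 sample.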

Other observations

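The sex-linked transcripts differed between members and other nuclei. Xist alone was detected in 15.6% of members and 23.2% of the others, Y-linked transcripts alone in 34.4% and 23.8%, neither in 46.8% and 50.1%, and both in 3.14% and 2.92%. Detection was counted here without thinning, and members were the deeper nuclei. The part of depth in these percentages was not measured. The cultures were started from pups of either sex, and cluster 1, with 14.8% members, was at 968 CPM of Xist, against at most 163 CPM in the other clusters. The part of this mix in the ratios above was measured only through the weighting to groups.

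Kifc1, a minus-end motor, and its near-identical copy Kifc5b had ratios of 2.34 and 1.93, and reads may be split between them.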
